A study of Mus musculus with 19 samples.

Results

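The genes described here are the machinery of the G1 phase of the cell cycle: the D-type cyclins Ccnd1, Ccnd2 and Ccnd3, their kinase partners Cdk4 and Cdk6, the Cdk inhibitors Cdkn1a, Cdkn1b, Cdkn2c and Cdkn2d, and the retinoblastoma gene Rb1. They were taken by symbol as a pathway, with earlier results of these data known, and all 10 were present among the 18607 genes of the deposited expression table. RNA-seq had been done on 19 libraries of progenitors sorted from C57BL/6 mouse bone marrow along the path to innate lymphoid cells. All-lymphoid progenitors (ALP, 7 libraries) were lineage-low, Ly-6D-low and positive for Kit and IL-7Rα, with high Flt3. Early innate lymphoid progenitors (EILP, 7 libraries) were sorted from the same lineage-low, Ly-6D-low cells for Kit and high GFP, with low CD122, low Thy-1.2 and intermediate or low IL-7Rα. ILC progenitors (ILCp, 5 libraries) were sorted likewise but had Thy-1.2, α4β7 and high IL-7Rα. Mice of all groups carried 1 reporter allele: Tcf7EGFP/+ for every ALP and EILP library and for ILCp 1, 2 and 3, and Plzf-cre-GFP/+ for ILCp 4 and 5. GFP thus follows the Tcf7 gene in the former and the PLZF gene in the latter, so the ILCp group joins 2 reporter gates.

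In G1, D-type cyclins are made in response to growth factor and cytokine signals and bind Cdk4 or Cdk6. The active kinase phosphorylates RB1 and its relatives p107 and p130, which releases E2F transcription factors to turn on genes of DNA replication. The INK4 inhibitors, among them Cdkn2c (p18) and Cdkn2d (p19), bind Cdk4 and Cdk6 directly, whereas the CIP/KIP inhibitors Cdkn1a (p21) and Cdkn1b (p27) act mainly on cyclin complexes with Cdk2. In lymphoid progenitors this switch is tied to IL-7, Kit and Flt3 signals, and Ccnd3 and Cdk6 are needed for the expansion of early T cells.

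Of the 10 genes, 4 changed in at least 1 comparison. Cdkn1a was high in EILP alone among the 3 stages. Ccnd2 and Cdk4 did not pass the test from ALP to EILP and were lower in ILCp than in both. Rb1 was higher in ILCp than in ALP. The other 6 genes did not pass the test in any comparison. Levels are given as deposited, in log2 CPM (each gene's reads relative to the library total, on a log2 scale), and the tests are limma's moderated test with batch in the model and Benjamini-Hochberg adjustment over all 18607 genes, with a threshold of 0.05. Errors of levels are SDs over the 7, 7 and 5 libraries of ALP, EILP and ILCp, and errors of log2 changes are SEs of the fit. In bulk samples, a lower level cannot be told apart from fewer cells that carry the transcript.

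Set against the whole table, from ALP to EILP 1 of the 10 genes was called, higher in EILP, against 5.05% of all genes called and 2.25% called higher. A single gene of 10 is near that background. From EILP to ILCp 3 of 10 were called, all lower, against 3.21% of all genes called and 1.46% called lower. Between ILCp and ALP 3 of 10 were called, 2 lower and 1 higher, against 8.24% of all genes called, 4.39% lower and 3.86% higher. The median log2 fold change of the 10 was -0.02, -0.26 and -0.11 in the 3 comparisons, beside 0.00, -0.08 and -0.03 over all genes. Over the 9351 genes with a mean above 2 log2 CPM, as the 10 have, it was -0.0007, -0.10 and -0.10. The -0.11 between ILCp and ALP is near that median. Of these 9351 genes, 274 were called higher and 340 lower from ALP to EILP. From EILP to ILCp 220 were called higher and 242 lower, and in ILCp against ALP 457 and 637. These are larger shares than over all genes. The comparisons share libraries, so that the calls of Ccnd2 and Cdk4 against EILP and against ALP rest on the same 5 ILCp libraries. The labels give no animal for a library, and the errors may cover technical spread alone.

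Promoter sequence was available for 7 of the 10 genes in RefSeq (GRCm38.p6), among them Cdk4 and Cdkn1a of the 4 that changed. The 250 bases before each start site of these 2 genes are shown because they are the changed genes whose start regions could be read. The motifs were chosen after the sequences were seen. Capitals mark CACGTG (the E-box letters that MYC family proteins can bind) in Cdk4, the p53 decamer in the upstream start of Cdkn1a, and GGGCGG (the GC box) in its downstream start. Both strands were searched, in windows of the 250 bases before each start, and no marked match overlaps another.
Cdk4, chr10:127063285-127063534, plus strand: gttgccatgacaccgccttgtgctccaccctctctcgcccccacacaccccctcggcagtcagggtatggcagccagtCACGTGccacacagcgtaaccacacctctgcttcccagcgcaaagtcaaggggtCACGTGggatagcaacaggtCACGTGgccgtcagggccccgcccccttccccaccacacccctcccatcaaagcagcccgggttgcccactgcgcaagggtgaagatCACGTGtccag
Cdkn1a upstream start, chr17:29090729-29090978, plus strand: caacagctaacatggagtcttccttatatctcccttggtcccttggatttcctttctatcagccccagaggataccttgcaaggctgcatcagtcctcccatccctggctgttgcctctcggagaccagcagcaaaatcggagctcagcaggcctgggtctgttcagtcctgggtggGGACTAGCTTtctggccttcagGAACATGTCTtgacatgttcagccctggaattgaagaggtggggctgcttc
Cdkn1a downstream start, chr17:29093519-29093768, plus strand: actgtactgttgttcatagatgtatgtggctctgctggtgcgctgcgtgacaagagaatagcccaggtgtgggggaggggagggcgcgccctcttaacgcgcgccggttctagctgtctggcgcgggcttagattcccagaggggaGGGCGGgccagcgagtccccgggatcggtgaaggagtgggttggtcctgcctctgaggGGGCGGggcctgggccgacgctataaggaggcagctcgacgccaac
The Cdk4 window holds CACGTG 4 times, at 172, 118, 98 and 11 bases before the start site. At least 1 such match was present in 6.02% of the 32851 promoter windows searched the same way, and at least 4 in 7 windows (0.0213%). The upstream Cdkn1a window holds the p53 decamer at 73 and 51 bases before the start, against at least 1 match in 7.13% and at least 2 in 0.259% of all windows. The downstream Cdkn1a window holds GGGCGG at 104 and 46 bases before the start, and 16.7% of all windows hold it at least 2 times. Letters of an E2F site (TTTNGCGC), present in 1.13% of all windows, were in none of the windows of these 7 genes. The other motifs also occur in genes that were not called. The Cdk6 window holds CACGTG 1 time and the Cdkn2d window the p53 decamer 1 time. GGGCGG is present in windows of Cdkn2c, Cdkn2d, Cdkn1b and Ccnd3, and 1 time, unmarked, in that of Cdk4. These matches describe sequence only. The table counts Cdkn1a as a single gene, so the use of its 2 start sites was not analysed here.

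The sorted identities were read from the genes behind the gates. Tcf7 averaged 1.06 log2 CPM in ALP, 10.51 in EILP and 9.24 in ILCp, with no overlap between ALP and the others. Flt3 averaged 10.21, 7.34 and 3.25, Thy1 -2.84, 0.07 and 5.30, and Il7r 7.46, 5.34 and 9.93. Flt3 was thus highest in ALP, and Thy1 and Il7r in ILCp, the groups gated for them. Ly6d averaged 5.67 in ALP, a Ly-6D-low gate, against 1.10 and 1.2 in EILP and ILCp. Il2rb, the CD122 gene, was at 7.14 and 6.61 in EILP and ILCp, both gated as CD122-low. The deposited values hold no read counts, so depth is unknown, and batch differences had been removed before deposit, which makes the spread within groups too small. EILP 3 and 4 make up the whole of batch 3, so this removal set their mean at the EILP mean for every gene. They are not separate evidence where all EILP libraries lie apart from other groups. How many of all genes lie apart between groups in this way was not analysed.

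**Figure D1:**
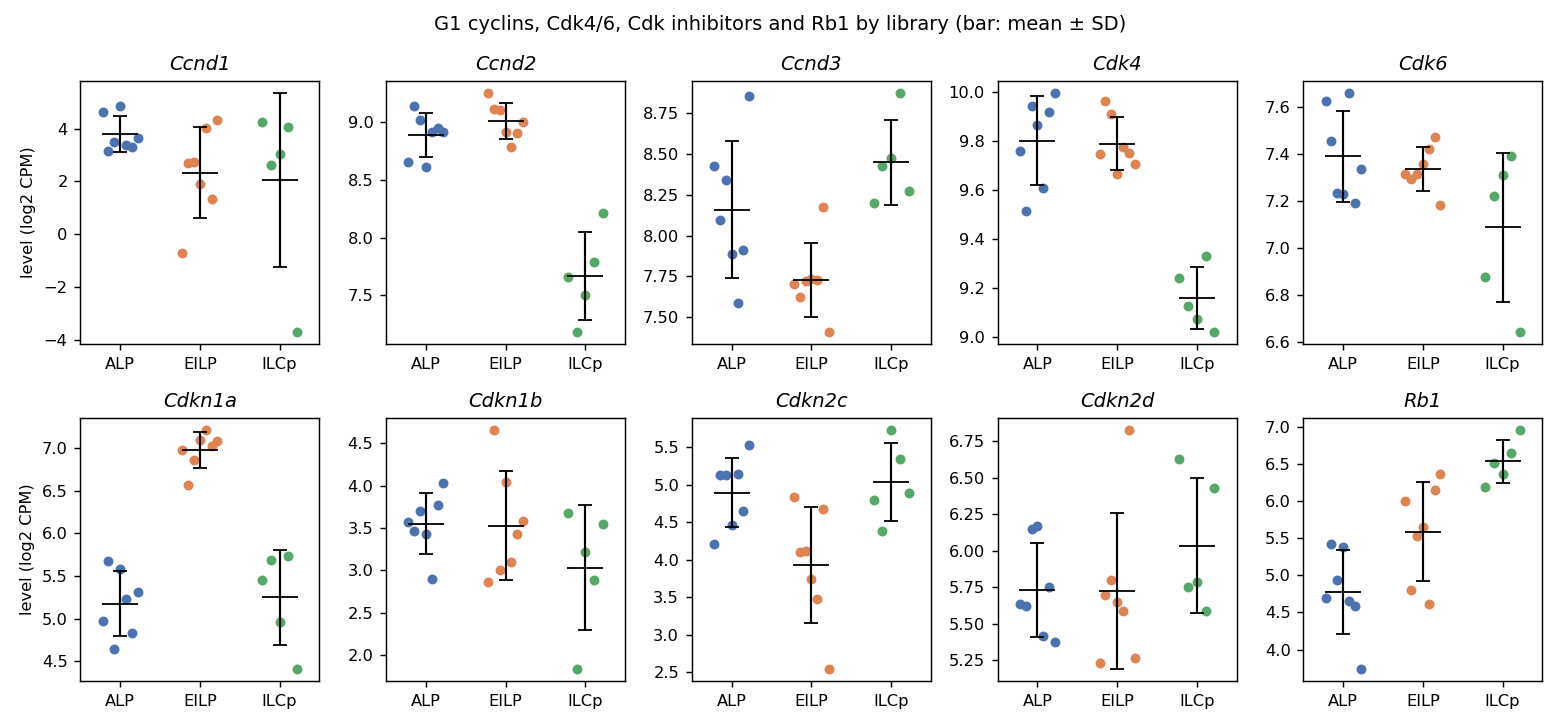
Levels of the 10 genes in log2 CPM (vertical axis, a separate range in each panel), 1 point a library, in 7 ALP, 7 EILP and 5 ILCp libraries; bars give mean ± SD. Cdkn1a stands apart in EILP, and Ccnd2 and Cdk4 in ILCp.

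Among the inhibitors, Cdkn1a changed at both steps. It encodes p21, the Cdk inhibitor best known as a target of p53 (chromosome 17, 29090976 to 29100727, GRCm38). In ALP its level ran from 4.65 (ALP 3) over a median of 5.23 to 5.68 log2 CPM (ALP 2). In EILP it ran from 6.57 (EILP 2) over a median of 7.03 to 7.21 (EILP 5). In the ILCp libraries 1 to 5 it was at 5.45, 5.69, 4.96, 5.74 and 4.41 log2 CPM. Each EILP library thus lay above each ALP and ILCp library, and the ALP and ILCp ranges overlapped. The mean of EILP 3 and 4 had been set at the EILP mean by the batch removal. Cdkn1a rose from ALP to EILP by 1.8 ± 0.26 (SE) on the log2 scale, 3.48-fold, with a limma adjusted p of 0.000538. It fell from EILP to ILCp by 1.73 on the log2 scale (SE 0.31, limma adjusted p = 0.00729). Between ILCp and ALP the log2 fold change was 0.07, with a 95% interval of -0.57 to 0.71 (limma adjusted p = 0.938). The direction was the same within each batch: EILP was above ALP by 2.01, 1.41, 1.64 and 1.93 in batches 1, 2, 4 and 5, and ILCp differed from EILP by -1.53, -0.89 and -2.18 in batches 1, 2 and 4. The fall to ILCp missed the threshold without EILP 5 (limma log2 fold change -1.59, adjusted p = 0.057) and when only EILP and ILCp were fitted (-1.62, adjusted p = 0.0871).

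Sums of stroma and granulocyte markers reached higher levels in EILP than in the other groups. Of 6 stroma markers 5 were measured, and their summed level was 0.757 to 8.95 CPM in ALP, 3.02 to 1419 CPM in EILP and 0.214 to 7.02 CPM in ILCp. The collagen genes Col1a1 and Col1a2 were under 1 CPM in every ALP and every ILCp library. In EILP 1, the EILP library with the lowest stroma sum (3.02 CPM), Cdkn1a was at 6.98 log2 CPM. That sum is made of floor values. Col1a1 (-0.78), Col1a2 (-0.37) and Sparc (0.47 log2 CPM) had the same levels in ALP 1, EILP 1 and ILCp 1. Several other ALP and ILCp libraries also share floor values, so their low sums do not measure stroma transcripts. In EILP 5, the EILP library with the highest stroma sum, Cdkn1a was at 7.21. The 7 granulocyte markers summed to 490 to 4904 CPM in ALP, 1607 to 41160 CPM in EILP and 89.2 to 1526 CPM in ILCp. None of the 7 passed from ALP to EILP, with 5 changes above 0 and 2 below. The means that fell were those of Ltf (1.69 to -1.22 log2 CPM) and S100a9 (3.08 to 1.61). From EILP to ILCp all 7 changes were below 0, and 2 passed. EILP 2 had the highest granulocyte sum and the lowest Cdkn1a level of the EILP libraries. Without EILP 2 and ALP 7 together, a setting added after the data were seen, the rise of Cdkn1a from ALP to EILP was 2.00 on the log2 scale (limma adjusted p = 0.00236). The part of these marker transcripts, or of cells that carry them, in the Cdkn1a level was not tested further.

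Markers of other lineages were also summed. The 6 T cell markers reached 20.7, 21.6 and 39.2 CPM at most in ALP, EILP and ILCp, and the 4 mature NK markers 19.2, 90.7 and 58.5 CPM. The 5 measured B lineage markers summed to 76.9 to 208.5 CPM in ALP, 51.4 to 84.2 CPM in EILP and 26.9 to 56.4 CPM in ILCp, with Pax5 under 1 CPM in every library. The 6 erythroid markers summed to 80.02 to 309.5 CPM in ALP, 87.6 to 1279 CPM in EILP and 162 to 1095 CPM in ILCp. The B lineage sums had medians of 89.2, 74.5 and 54.2 CPM, lowest in ILCp where Ccnd2 and Cdk4 were lowest, and their part in those levels was not tested.

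**Figure D2:**
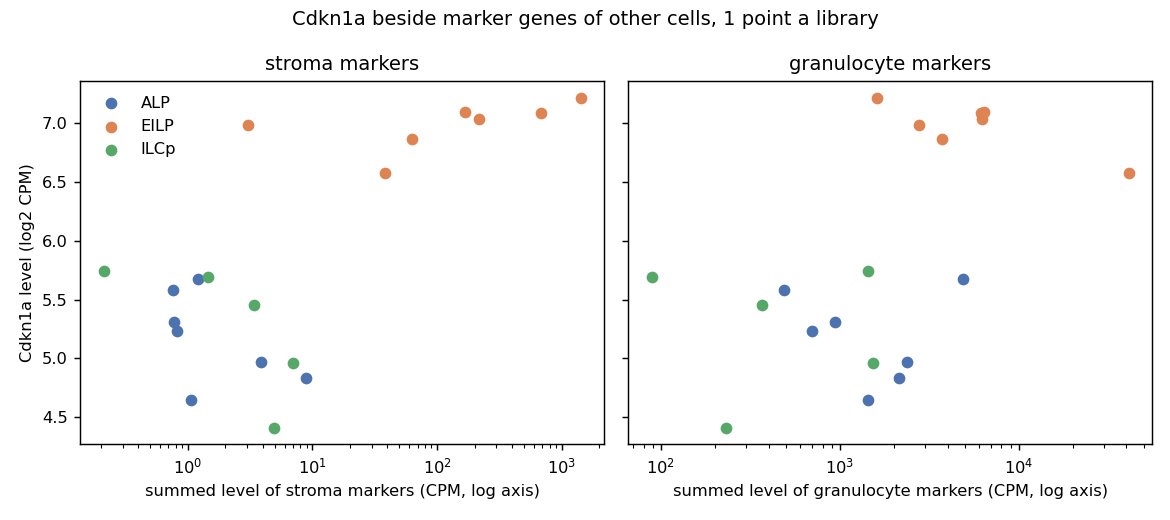
Cdkn1a level (log2 CPM, vertical axis) against the summed level of 5 stroma markers (left) and 7 granulocyte markers (right) in CPM on log axes, 1 point a library. All 7 EILP libraries lie above 6.5 log2 CPM at stroma sums from 3.02 to 1419 CPM. The mean Cdkn1a level of EILP 3 and 4 was set at the EILP mean by batch removal. The stroma sum of EILP 1, 3.02 CPM, is made of floor values.

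The other inhibitors did not pass the test at either step. Cdkn1b, which encodes p27 (chromosome 6, 134920401 to 134925513), averaged 3.55 ± 0.36 (ALP), 3.53 ± 0.64 (EILP) and 3.03 ± 0.74 log2 CPM (ILCp). Its lowest level, 1.83, was in ILCp 2, and the 3 ranges overlapped. Cdkn2c, the p18 INK4 gene (chromosome 4, 109660876 to 109667189), averaged 4.89 ± 0.46, 3.92 ± 0.77 and 5.03 ± 0.52 across these stages. Cdkn2c therefore had its lowest mean where Cdkn1a had its highest. Its change from ALP to EILP was -0.97 ± 0.41 (SE), with a 95% interval of -1.84 to -0.10 and a limma adjusted p of 0.23. From EILP to ILCp it was 1.10 ± 0.49 (95% interval 0.07 to 2.14, limma adjusted p = 0.263). Both intervals leave out 0 before adjustment over all genes, and neither change passed after it. Cdkn2d, the p19 INK4 gene (chromosome 9, 21288410 to 21291407), was at 5.73 ± 0.32, 5.72 ± 0.53 and 6.04 ± 0.46. EILP 6 held its highest level, 6.83, and the other EILP libraries were at 5.80 or lower. Levels per kb of exon were taken over the joined length of all annotated exons of a gene. On that scale Cdkn2d was the highest of the 4 inhibitors in ALP and ILCp. It was at 5.08 ± 0.32 log2 CPM per kb in ALP and 5.38 ± 0.46 in ILCp. In EILP, Cdkn1a (5.15 ± 0.21) and Cdkn2d (5.07 ± 0.53) did not differ beyond their spread.

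Of the further inhibitor genes, Cdkn1c, which encodes p57, moved in the same direction as Cdkn1a at the first step. It was at -1.87 ± 2.88 log2 CPM in ALP, 4.21 ± 0.91 in EILP and -1.22 ± 3.10 in ILCp. The lowest EILP library (3.25) lay above the highest ALP (1.45) and ILCp (1.96) libraries. The change to EILP passed (limma adjusted p = 0.0295) and the change to ILCp did not (adjusted p = 0.128). No fold is given, because several ALP and ILCp libraries lay at or near the lowest levels of the table. Of the 3 measured members of that list (Cdkn1c, Cdkn2b and Cdkn3), Cdkn1c was the only one to pass in any comparison. Over all genes 2.25% were called higher from ALP to EILP. Among 9 measured p53 target genes other than Cdkn1a, none rose from ALP to EILP and 1 fell, Phlda3, from 4.50 log2 CPM in ALP to -0.52 in EILP on average (limma adjusted p = 0.0215). From EILP to ILCp 1 of the 9 was called, Trp53inp1, higher by 1.41 ± 0.34 (limma adjusted p = 0.0361). Over all genes 1.76% were called higher at that step. These counts are near the background.

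The D-type cyclins did not move together. Ccnd2 (chromosome 6, 127125162 to 127152193) ran from 8.61 (ALP 4) over 8.92 to 9.15 log2 CPM (ALP 2) in ALP and from 8.79 (EILP 5) over 9.0 to 9.26 (EILP 1) in EILP. In ILCp 1 to 5 it was at 7.66, 7.18, 7.50, 7.79 and 8.21. All ILCp libraries lay below all others, and ALP and EILP overlapped. Ccnd2 fell from EILP to ILCp by 1.34 on the log2 scale (SE 0.18, 2.54-fold, limma adjusted p = 0.00115) and was lower in ILCp than in ALP by a log2 change of -1.22 ± 0.18 (limma adjusted p = 0.000389). Between EILP and ALP the change was 0.13, with a 95% interval of -0.21 to 0.46. ILCp differed from EILP by -1.60, -1.93 and -0.95 within batches 1, 2 and 4. ILCp 5, from a Plzf-cre-GFP mouse, had the highest Ccnd2 level of the ILCp libraries, and in batch 4 the Tcf7EGFP library ILCp 3 was at 7.50 against 7.79 and 8.21 in the Plzf-cre-GFP libraries.

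Ccnd3 (chromosome 17, 47505051 to 47599691) was at 8.16 ± 0.42 log2 CPM in ALP, 7.73 ± 0.23 in EILP and 8.45 ± 0.26 in ILCp. In ILCp 1 to 5 it was at 8.20, 8.43, 8.47, 8.87 and 8.27, and the highest EILP library, EILP 6, was at 8.17, just below them. The change from EILP to ILCp was 0.72 ± 0.24 (95% interval 0.21 to 1.23) and did not pass (limma adjusted p = 0.125). A processed pseudogene, Ccnd3-ps, lies on chromosome 4, and reads of the gene and its copy may not be told apart. Within each library, the Ccnd2 level minus the Ccnd3 level was 0.06 to 1.33 log2 CPM in ALP and 0.74 to 1.59 in EILP. In ILCp it was -1.25 to -0.06, below 0 in each of the 5 libraries. Per kb of exon, Ccnd2 averaged 5.65 ± 0.19, 5.78 ± 0.16 and 4.44 ± 0.38 log2 CPM per kb in ALP, EILP and ILCp, and Ccnd3 5.02 ± 0.42, 4.59 ± 0.23 and 5.32 ± 0.26. By these means Ccnd2 was ahead of Ccnd3 in ALP and EILP and behind it in ILCp. The length used is that of all annotated exons, and the expressed transcripts may be shorter. Which of the 2 cyclins leads within a group may therefore depend on that length, whereas the shift between groups does not.

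Ccnd1 (chromosome 7, 144929931 to 144939925) was the lowest of the 3 cyclins per length, at 1.55 ± 0.68 log2 CPM per kb in ALP, 0.09 ± 1.72 in EILP and -0.18 ± 3.30 in ILCp. As log2 CPM it ran from 3.14 to 4.88 in ALP and from -0.73 (EILP 1) to 4.35 (EILP 7) in EILP. In ILCp 1 to 5 it was at 4.27, 2.62, 3.02, 4.08 and -3.72. ILCp 5 lay far below the other libraries of its group, and the ranges overlapped. No comparison passed, and the interval of ILCp against EILP, -3.40 to 2.85, is wide.

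**Figure D3:**
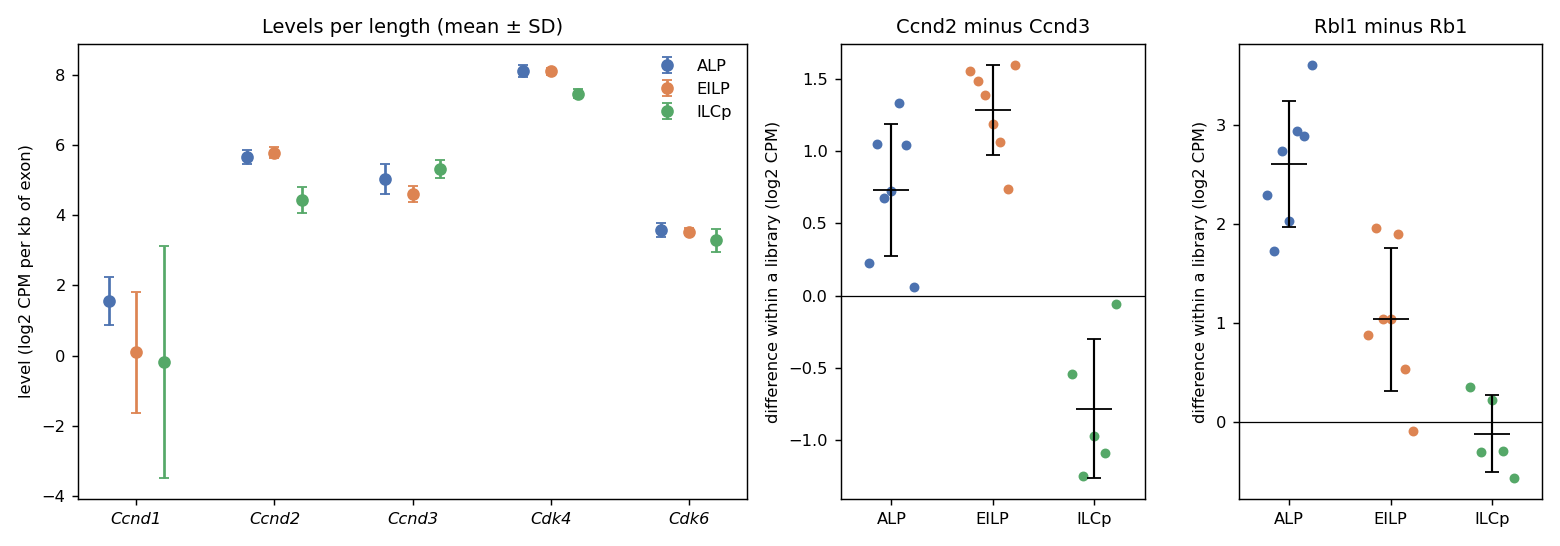
Left, levels of D-type cyclins and their kinases in log2 CPM per kb of exon (mean ± SD over libraries). Middle and right, the difference between 2 genes within each library (log2 CPM, 1 point a library, bar mean ± SD): Ccnd2 minus Ccnd3 is below 0 in the 5 ILCp libraries only, and Rbl1 minus Rb1 falls from medians of 2.74 in ALP to 1.04 in EILP and -0.29 in ILCp.

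Cdk4, the main partner of D-type cyclins (chromosome 10, 127063534 to 127067920), was the highest of the 10 genes per kb of exon in all 3 groups, at 8.10 ± 0.18, 8.09 ± 0.11 and 7.46 ± 0.13 log2 CPM per kb. As log2 CPM it ran from 9.51 (ALP 2) over 9.87 to 9.996 (ALP 7) in ALP and from 9.67 (EILP 4) over 9.75 to 9.97 (EILP 2) in EILP. In ILCp 1 to 5 it was at 9.24, 9.13, 9.07, 9.33 and 9.02. As with Ccnd2, each ILCp library was below each ALP and EILP library. Cdk4 fell from EILP to ILCp by 0.63 on the log2 scale (SE 0.11, 1.55-fold, limma adjusted p = 0.00725). ILCp against ALP gave -0.64 ± 0.11 (limma adjusted p = 0.00143). Between EILP and ALP the change was -0.01, with a 95% interval of -0.22 to 0.19. ILCp was below EILP by 0.51, 0.84 and 0.64 in batches 1, 2 and 4. The change is less than 2-fold, and in limma without a mean-variance trend it did not pass (adjusted p = 0.125 for ILCp against EILP and 0.059 against ALP). Tspan31, a tetraspanin gene on the opposite strand, shares 19.7% of the Cdk4 exon bases, and libraries without strand do not separate the pair there. Tspan31 was at 6.94, 6.95 and 7.16 log2 CPM on average and did not pass.

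Cdk6 (chromosome 5, 3341485 to 3531008) was at 7.39 ± 0.19 log2 CPM in ALP, 7.34 ± 0.09 in EILP and 7.09 ± 0.32 in ILCp. In ILCp 1 to 5 it was at 6.88, 7.22, 7.31, 7.39 and 6.64, so that 3 of the 5 libraries lay within the ALP range. No comparison passed (limma adjusted p = 0.912 for EILP against ALP, 0.524 for ILCp against EILP and 0.34 for ILCp against ALP). Per kb of exon, Cdk6 was below Cdk4 in each group, at 3.58, 3.53 and 3.28 log2 CPM per kb.

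Rb1, the pocket protein that holds E2F factors in check (chromosome 14, 73183673 to 73325822), ran from 3.74 (ALP 7) over 4.70 to 5.42 log2 CPM (ALP 2) in ALP and from 4.62 (EILP 5) over 5.65 to 6.37 (EILP 7) in EILP. In ILCp 1 to 5 it was at 6.19, 6.51, 6.36, 6.64 and 6.96. ILCp lay above ALP throughout, and EILP overlapped both. Rb1 was higher in ILCp than in ALP by 1.76 ± 0.41 (SE) on the log2 scale, 3.38-fold, with a limma adjusted p of 0.0139. The single steps were 0.82 ± 0.36 from ALP to EILP (limma adjusted p = 0.254) and 0.94 ± 0.43 from EILP to ILCp (adjusted p = 0.28), neither past the threshold. Within batches 1, 2 and 4, each with 1 to 3 libraries a group, ILCp was above ALP by 1.49, 1.33 and 1.28. EILP minus ALP, in contrast, was 1.31 and 1.93 in batches 1 and 5 but -0.38 and -0.76 in batches 2 and 4. The call against ALP was lost without ILCp 2 (log2 fold change 1.77, limma adjusted p = 0.059) and without the Plzf-cre-GFP libraries (log2 fold change 1.59, adjusted p = 0.0829).

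Opposite-strand genes overlap Rb1 too. Lpar6, a lysophosphatidic acid receptor gene, shares 6.78% of the Rb1 exon bases, and Rcbtb2 shares 8.11%. Lpar6 was at 5.09 ± 0.78, 5.93 ± 0.33 and 7.87 ± 0.44 log2 CPM in ALP, EILP and ILCp and was higher in ILCp than in ALP by 2.79 ± 0.41 (limma adjusted p = 0.000387). Rcbtb2 was higher by 0.89 ± 0.26 (limma adjusted p = 0.0429). Both overlapping genes were thus higher in ILCp than in ALP, as Rb1 was, and their part in the Rb1 level was not tested. Opposite-strand genes also share 7.68% of the exon bases of Cdkn1a (AC167363.2), 23.4% of Ccnd1 (LTO1), 3.91% and 3.95% of Ccnd2 (9330179D12Rik and Gm43126), 4.11% of Ccnd3 (Bysl) and 2.63% of Cdk6 (Gm17590). Levels of AC167363.2, LTO1, Gm43126 and Gm17590 were not analysed here, so their part in the levels of Cdkn1a, Ccnd1, Ccnd2 and Cdk6 was not tested.

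The relatives of Rb1 moved in opposite directions. Rbl1, which encodes p107, fell from 7.38 ± 0.24 log2 CPM in ALP to 6.63 ± 0.19 in EILP, a change of -0.75 ± 0.15 (limma adjusted p = 0.00758), and was at 6.42 ± 0.15 in ILCp. Rbl2, which encodes p130, the pocket protein most linked to resting cells, rose from 6.81 ± 0.46 in EILP to 8.20 ± 0.54 in ILCp, a change of 1.38 ± 0.34 (limma adjusted p = 0.0387), from 6.50 ± 0.40 in ALP. Within each library, Rbl1 minus Rb1 was 1.73 to 3.61 log2 CPM in ALP, -0.08 to 1.96 in EILP and -0.56 to 0.36 in ILCp. Rbl1 minus Rbl2 was -0.04 to 1.54, -0.82 to 0.79 and -2.41 to -0.93 in the same order.

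**Figure D4:**
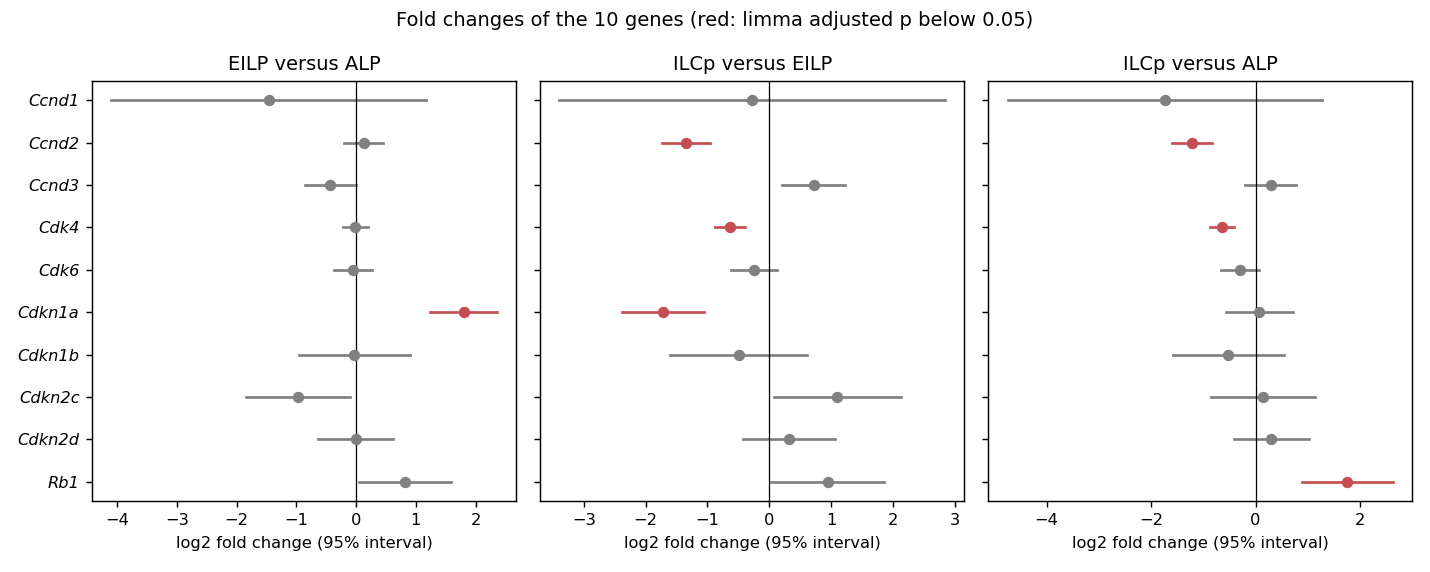
Log2 fold changes of the 10 genes with 95% intervals (horizontal axis) in the 3 comparisons; red marks limma adjusted p below 0.05. Cdkn1a passes in the first panel, Ccnd2, Cdk4 and Cdkn1a in the second, and Ccnd2, Cdk4 and Rb1 in the third.

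Genes downstream of the switch were counted from lists. Of 18 E2F target and replication genes, 1 fell from ALP to EILP (Gins2, of the replication helicase complex), 1 from EILP to ILCp (Mcm7) and 8 were lower in ILCp than in ALP, and none rose. Over all genes, 2.79%, 1.46% and 4.39% were called lower in these comparisons, so the single calls at each step are near the background. Their median log2 fold change was -0.24, -0.36 and -0.56 in the 3 comparisons. The replicative helicase gene Mcm7 was lower in ILCp than in ALP by a log2 change of -0.86 ± 0.15 (limma adjusted p = 0.00194), and Mcm5 by -0.64 ± 0.12 (adjusted p = 0.00221). Of 14 mitosis genes 8 fell from ALP to EILP (median -0.78), none changed from EILP to ILCp (median -0.08) and 7 were lower in ILCp than in ALP (median -0.87). Bub1b, a spindle checkpoint kinase gene, changed by -1.86 ± 0.28 at the first step (limma adjusted p = 0.000588) and Cdk1, the mitotic kinase gene, by -0.80 ± 0.16 (adjusted p = 0.00764). The other 6 mitosis genes did not pass from ALP to EILP, the step at which Cdkn1a rose, and 1 of the 14 had a change above 0.

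Of 10 E2F and DP factor genes none passed from ALP to EILP, 1 fell from EILP to ILCp and 2 were lower in ILCp than in ALP. Over all genes, 1.46% were called lower from EILP to ILCp and 4.39% lower in ILCp than in ALP. The single call from EILP to ILCp is near that background. E2f1, the activator released by RB1, changed by -0.86 ± 0.18 from EILP to ILCp (limma adjusted p = 0.0178), and Tfdp1, its DNA-binding partner, by -0.57 ± 0.15 between ALP and ILCp (adjusted p = 0.0257). In the cyclin E, cyclin A and Cdk2 module none of 8 genes passed at either step. Between ILCp and ALP 2 of the 8 were called, both lower, against 4.39% of all genes. They were Ccna2 (-1.33 ± 0.34, limma adjusted p = 0.0211) and Cks1b (-0.76 ± 0.18, adjusted p = 0.0152). None of the 3 Cdk activating kinase genes passed in any comparison.

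**Figure D5:**
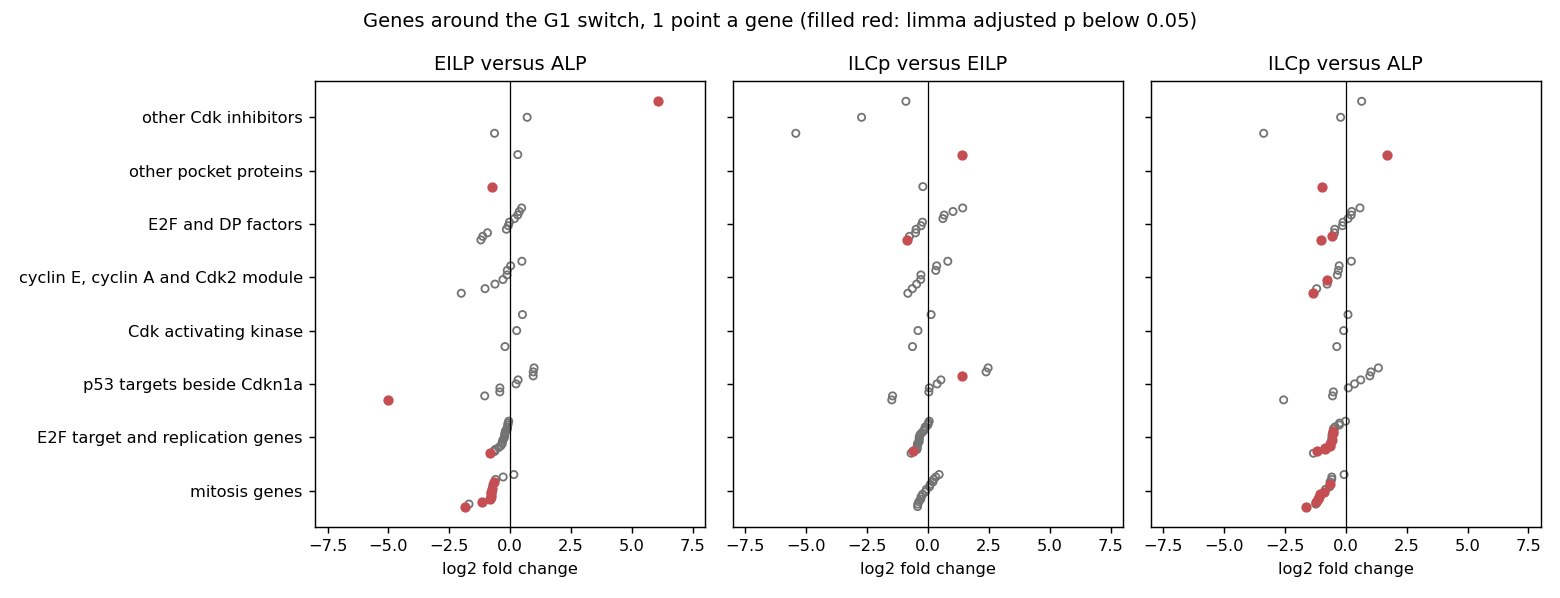
Log2 fold changes (horizontal axis) of genes around the G1 switch, 1 point a gene, by list and comparison; filled red points have limma adjusted p below 0.05. In the first panel 8 of 14 mitosis genes are called lower, and replication genes are below 0 in the third (18 of 18, 8 of them called).

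Among 15 upstream regulators, the Myc family genes moved apart. Myc, an activator of Cdk4 and Ccnd2 and a repressor of Cdkn1a in other systems, fell from 8.45 ± 0.35 log2 CPM in ALP to 7.72 ± 0.13 in EILP (limma adjusted p = 0.0328) and was at 7.28 ± 0.35 in ILCp. Mycn rose from 5.13 ± 0.73 to 7.69 ± 0.20 at the first step (limma adjusted p = 0.00016) and fell by 1.76 on the log2 scale, to 5.92 ± 0.48, at the second (adjusted p = 0.0231). Mycn therefore shared with Cdkn1a a peak in EILP, with each EILP library (7.36 or more) above each ALP and ILCp library (6.71 or less). Of the 15, 2 rose and 3 fell from ALP to EILP, 1 fell from EILP to ILCp, and 3 were higher and 2 lower in ILCp than in ALP. Over all genes, 2.25% were called higher and 2.79% lower from ALP to EILP, and 1.46% lower from EILP to ILCp. Between ILCp and ALP 3.86% were called higher and 4.39% lower. The single call from EILP to ILCp is near that background. Notch1, the receptor gene, changed by -2.19 ± 0.31 from ALP to EILP (limma adjusted p = 0.000414), and Stat5b, which carries IL-7 signals, by 0.88 ± 0.24 between ALP and ILCp (adjusted p = 0.0311).

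The genes most like each changed member were sought by Pearson correlation over the 19 libraries among 9351 genes with a mean above 2 log2 CPM. These are descriptions over libraries that share their groups. Nfil3, a transcription factor needed for innate lymphoid progenitors, was nearest to Cdkn1a (r = 0.957), at 5.23 ± 0.64, 8.19 ± 0.09 and 5.83 ± 0.73 log2 CPM in ALP, EILP and ILCp, followed by Aff3 (0.893) and the mitochondrial thioredoxin gene Txn2 (0.891). Nearest to Ccnd2 were Dtnbp1 (0.936), the proteasome-bound deubiquitinase gene Uchl5 (0.935) and Tm2d2 (0.932). Nearest to Cdk4 were the channel gene Panx1 (0.961), Nmral1 (0.897) and Prr5 (0.894), a partner of the mTORC2 kinase. Nearest to Rb1 were the single-strand DNA-binding gene Nabp1 (0.915), the actin regulator gene Wdr1 (0.912) and the phosphatase gene Ppm1l (0.901).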

How the data were processed

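RNA-seq libraries were made from sorted cells with a SMARTer Ultra Low and Nextera XT protocol, which keeps no strand, per the labels' protocols. The deposited values are the authors' log2 CPM for 18607 genes. The submitters' processing notes name bcl2fastq 1.8.4, STAR 2.4.0h, edgeR, limma and mm10, without roles. In the deposited table the largest batch coefficient beside the groups was 1.84e-08, so batch had been removed, and 9 empty columns were not used. With no counts, a count model could not be run.

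limma 3.58.1 (R 4.3.3) was fitted with a trend to all 19 libraries, with group and batch (5 batches) as terms and Benjamini-Hochberg adjustment over all genes, and was tested on simulated data. Batch 3 holds only EILP 3 and 4 and bears on the error alone. Exon lengths and coordinates came from GENCODE (GRCm38). The length of a gene was that of all its annotated exons joined, not that of the transcript expressed. Orders between genes per kb of exon may depend on this choice. The 10 genes and the lists were chosen with earlier results of these data known. Besides the 10, up to 3 rising and 3 falling genes with the smallest p of each list were named, and the 3 genes most correlated with each changed gene. Overlapping neighbours were added after the data were seen. Other settings numbered 12, with 19 that left out 1 library and 1 added after seeing the data.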

Additional observations from a re-analysis of the deposited data

Results flagged for a closer look

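Of 30 groups of values tested (10 genes in 3 groups), 3 held a library far from the rest of its group by Dixon's test, which chance gives in about 1 in 20 groups. Ccnd1 in ILCp 5 was at -3.72 log2 CPM, and the nearest ILCp library was at 2.62. Ccnd3 in EILP 6 was at 8.17, and the nearest EILP library was at 7.73. Cdkn2d in EILP 6 was at 6.83, and the nearest was at 5.80. None of these 3 genes passed the limma test in any comparison. EILP 6 holds 2 of the 3 values.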

How the results depend on the processing

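Ccnd2, in both comparisons with ILCp, and Cdkn1a, from ALP to EILP, kept direction and call under every setting run. Cdkn1a from EILP to ILCp, Rb1 and Cdk4 lost calls only as given with their results, and Cdk4 also when a fold of at least 2 was asked for. With batch as a random term 3, 7 and 8 of the 10 genes were called for EILP against ALP, ILCp against EILP and ILCp against ALP, and without batch 6 were called for ILCp against EILP. The counts over all genes in that order were 3391, 8201 and 11612 with random batch and 2551, 3047 and 3856 without batch. With only the 2 groups compared the counts were 183 for ILCp against EILP and 772 for ILCp against ALP, without the Plzf-cre-GFP libraries 254 and 1012, and for ILCp against EILP 280 without a trend and 309 without ALP 7 and EILP 2 together. Leaving out 1 library gave 224 to 624 for ILCp against EILP and 920 to 1584 for ILCp against ALP. Batch had been removed before deposit, so the fits with random batch and without batch take too small a spread. Their counts are not valid alternatives to those of the main fit. The cause of the other shifts was not tested.

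Correlations between same-numbered libraries, taken on deviations from group means, were -0.605 to 0.0007, -0.640 to 0.0431 and -0.441 to 0.116. Batch removal makes such deviations cancel out within a batch, which forces libraries of a batch apart. The check therefore cannot show whether the numbers pair libraries. They were treated as unpaired. A replicate block in place of batch called 1613, 1484 and 2362 genes, with 1, 4 and 3 of the 10.

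Signs turned only for changes that had not passed. From ALP to EILP, median centring gave 0.029 for Cdk4, 0.0125 for Cdkn1b and 0.0328 for Cdkn2d, the 2 groups alone 0.0412 for Cdkn1b and 0.0084 for Cdkn2d, and quantile normalization 0.144 and 0.0565. Ccnd1 from EILP to ILCp became 0.17 with the 2 groups alone and 0.96 without the Plzf-cre-GFP libraries. Leaving out 1 library gave, from ALP to EILP, -0.0788 to 0.0242 for Cdk4, -0.0994 to 0.0179 for Cdk6, -0.46 to 0.20 for Cdkn1b and -0.35 to 0.16 for Cdkn2d. From EILP to ILCp it gave -1.57 to 0.95 for Ccnd1 and -0.83 to 0.11 for Cdkn1b, and between ALP and ILCp -0.17 to 0.28 for Cdkn1a, -0.84 to 0.15 for Cdkn1b and -0.12 to 0.50 for Cdkn2c. A pseudocount could not be varied in values deposited as logs.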

Other observations

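The Cdk4 level minus the Cdkn1a level within a library, a pair the text has not yet set side by side, was 3.84 to 5.29 log2 CPM in ALP, 2.56 to 3.39 in EILP and 3.44 to 4.61 in ILCp. The EILP libraries lay below all others. Cdk4 minus Cdk6 was 1.95 to 2.73 in ALP, 2.28 to 2.67 in EILP and 1.76 to 2.38 in ILCp, and these ranges overlapped.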
